A study of Mus musculus with 140 samples.

Results

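Mouse embryonic stem cells carrying a short hairpin RNA (shRNA) against Nanog were compared, day by day, with cells of the same line carrying an shRNA against Sox2. The samples were taken by their titles, Nanog_shRNAi and Sox2_shRNAi, at each of days 0 to 7. This gave 16 of the 70 RNA samples and 32 of the 140 arrays of the series, with 8 RNA samples for each hairpin. Each RNA sample was measured on an Affymetrix MOE430A and a MOE430B array. The groups were CCE cells with the Nanog shRNA, CCE cells with the Sox2 shRNA and, as their reference, CCE cells with the empty H1P vector, again 8 RNA samples on 16 arrays. CCE is an embryonic stem cell line of strain 129/Sv. All 3 groups were grown with leukemia inhibitory factor at 1000 units/ml, which the controls therefore share, and all were sorted as GFP-positive cells (green fluorescent protein marks the transduced cells). Day 0 is 48 h after transduction. Each course was followed in 1 sample per day, with no replicate transduction named. A difference between courses therefore cannot be told apart from a difference between the transduced cultures. The p-values of the curve fits measure how far single samples scatter from the fitted daily curves, and some of that scatter may be technical.

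Nanog and Sox2 are transcription factors that act with Oct4 to hold mouse embryonic stem cells in the undifferentiated state. Sox2 binds DNA beside Oct4 at a composite site, and mouse embryonic stem cells that lose Sox2 are known to take on trophoblast features. Nanog is known to hold back primitive endoderm, and cells without it can switch on the endoderm regulators Gata6 and Gata4.

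Values are MAS5 signals, a linear measure of probe set brightness. Median signals lay between 250.8 and 343.1 on the A arrays of the Nanog shRNA course, between 260.3 and 314.5 in the Sox2 shRNA course and between 244.5 and 330.9 in the empty vector course. Differences are log2 values taken after adding 63.1 to each A array signal or 21.8 to each B array signal, which understates the change of dim genes. They are given as Nanog shRNA minus Sox2 shRNA, so a positive value means a higher level under the Nanog shRNA. Curves over days were fitted with limma to 14749 genes, and the late difference is their mean over days 4 to 7, the early difference that over days 0 and 1, and the change is late minus early. The fit held all 9 courses of the series, which share the estimate of scatter. They include other knockdowns and a retinoic acid course without leukemia inhibitory factor. A gene passed at a Benjamini-Hochberg adjusted p under 0.05 over all 14749 genes. Of the 14749, 272 (1.84%) were bright enough for testing only through the 2 knockdown courses. The day 6 sample of the Sox2 shRNA course lay farther from its curve than any other of the 70 samples, and the day 6 and day 5 samples of the Nanog shRNA course ranked 3 and 4 of 70. The arrays measured bulk RNA, in which fewer cells of a type and less RNA per cell cannot be told apart.

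Each targeted transcript was lower in its own course. Nanog had signals of 1644, 1078, 982, 994, 931, 883, 957 and 877 on days 0 to 7 of the Nanog shRNA course. It had signals of 5672, 4744, 4442, 3700, 3350, 3349, 4533 and 4214 in the Sox2 shRNA course, and 6576 to 8314 in the empty vector course. The groups did not overlap, and the Sox2 shRNA course lay between the Nanog shRNA course and the empty vector course on every day. Sox2 had signals of 7375, 4357, 4042, 3818, 4013, 2624, 1664 and 1990 in the Nanog shRNA course. In the Sox2 shRNA course it had 1463, 909, 656, 496, 536, 632, 1385 and 1890, and in the empty vector course 3691 to 6094. The Sox2 transcript of the Sox2 shRNA course was thus lowest on days 3 to 5 and came close to that of the Nanog shRNA course by days 6 and 7, where the day-matched log2 differences were 0.25 and 0.07. Averaged over the 8 days, the Nanog difference was -1.97 (lower on 8 of 8 days) and the Sox2 difference was 1.85 (higher on 8 of 8 days). With the fitted curves the Sox2 difference was 2.27 early and 1.24 ± 0.15 late (SE, limma, adjusted p = 4.66e-08 late). An exact two-sided sign-flip test gave p = 0.00781 for each, the smallest that 8 days allow, and 0.0104 after adjustment over the 4 genes tested this way. The sign-flip test treats the 8 days as independent, although days of a course are not independent cultures. A constant offset between the courses is enough to give its smallest p-value.

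**Figure D1:**
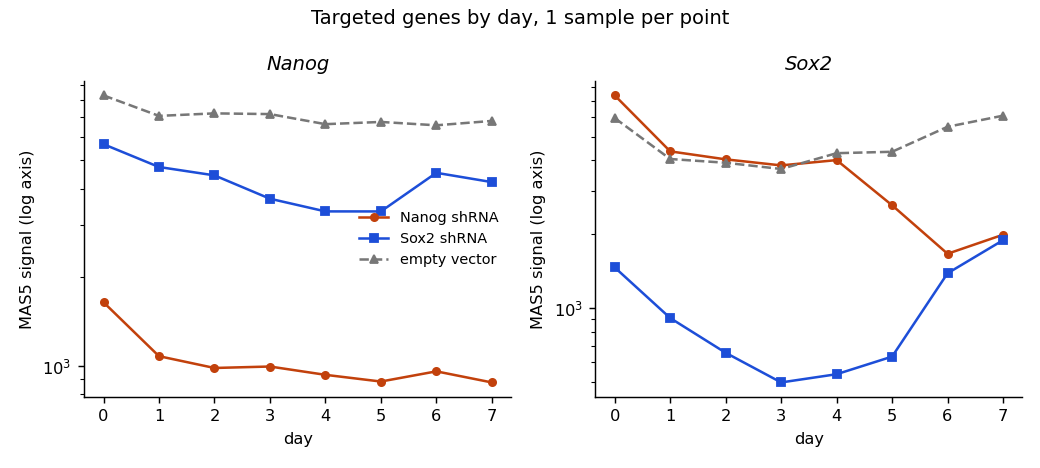
MAS5 signal (log axis) of Nanog and of Sox2 by day for the Nanog shRNA, Sox2 shRNA and empty vector courses, 1 sample per point. Nanog stays at 877 to 1644 under the Nanog shRNA, below both other courses, whereas Sox2 under the Sox2 shRNA is at 496 on day 3 and 1890 on day 7, close to the 1990 of the Nanog shRNA course on that day.

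The other 2 markers set for this comparison were Dab2, an adaptor protein made by endoderm and trophoblast, and Acta2, smooth muscle actin. Acta2 was lower under the Nanog shRNA on 8 of 8 days, by 1.50 on the log2 scale on average (exact sign-flip p = 0.00781, 0.0104 adjusted). Dab2 was higher on 4 of 8 days and lower on 4, with a mean difference of -0.09 (exact sign-flip p = 0.727). Its signals were 283, 430, 906, 1682, 2012, 1856, 1886 and 3436 on days 0 to 7 of the Nanog shRNA course, and 659, 1013, 1522, 1556, 1336, 1272, 2050 and 1570 in the Sox2 shRNA course. Dab2 thus increased over days in both courses, and under the Nanog shRNA it was lower on days 0 to 2 and day 6 and higher on days 3 to 5 and day 7. The change in its difference was 1.56 (limma, adjusted p = 0.026), a call that was lost when all probe sets of the gene were averaged and without the day 0, 1 or 7 sample of either course or day 5 of the Sox2 shRNA course (0.0541 to 0.591).

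Each day showed genes that stood apart between the courses. Genes at least 2-fold apart numbered 1113, 1345, 1354, 1432, 1433, 2063, 1510 and 1225 on days 0 to 7. When each empty vector sample was set against that of the day before, the same count was 1499 from day 0 to day 1 and 807 to 1226 for the later steps. The counts between the courses were below 1499 on days 0 to 4 and day 7, and above it on days 5 and 6. Set against the later steps, they were above 1226 on days 1 to 6, and below it on day 0 and, only just, on day 7. On day 5, when the Nanog shRNA sample was among those farthest from their curves, 1362 genes were higher and 701 lower.

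**Figure D2:**
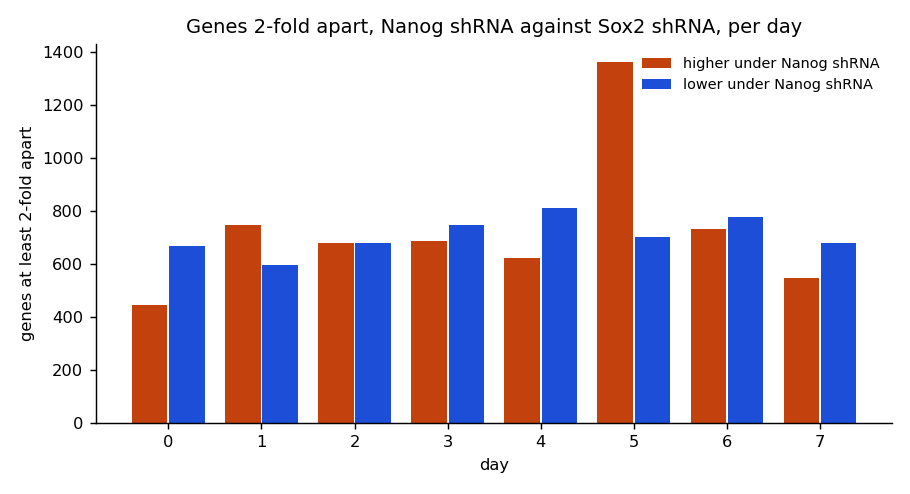
Number of genes at least 2-fold higher (first bar) or lower (second bar) under the Nanog shRNA than under the Sox2 shRNA on each day, of 14749 genes. Day 5 has the most genes higher (1362), and no other day has more than 748 higher.

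Over days 4 to 7, 1635 genes (11.1%) passed, 861 higher (5.84%) and 774 lower (5.25%) under the Nanog shRNA. Quantile normalization of the arrays gave 741 higher and 1027 lower, so the share of higher genes was 52.7% in the first case and 41.9% in the second. Of the 1635, 337 genes (2.28%) also differed at least 2-fold, 140 of them higher (0.949%) and 197 lower (1.34%). On days 0 and 1, 754 genes passed (5.11%), 344 higher (2.33%) and 410 lower (2.78%). The difference itself changed over time at 94 genes (0.637%), 54 upward (0.366%) and 40 downward (0.271%). Averaged over all 8 days, 2866 genes passed (19.4%), 1561 higher (10.6%) and 1305 lower (8.85%). These counts depend on single samples. The late count was 1063 without the day 7 sample of the Nanog shRNA course, 903 without that of the Sox2 shRNA course and 576 without the 3 samples farthest from their curves. The 576 were 306 higher and 270 lower. With day 7 left out, the splits were 522 and 541 (Nanog shRNA course) and 462 and 441 (Sox2 shRNA course). For day 5 of these courses they were 624 and 559, and 559 and 658. For day 6 they were 646 and 661, and 981 and 738. The early count was 144 and 94 without the day 0 sample of the Nanog and of the Sox2 shRNA course, and the count of changes was 24 and 8.

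Genes of simple epithelium and trophoblast, the outer cell layer of the early embryo, came on in both courses, and several of them were lower at first under the Nanog shRNA. Keratin 19 (Krt19), a filament protein of simple epithelium, had signals of 53.3, 38.3, 107, 1002, 3547, 6869, 16733 and 17711 on days 0 to 7 of the Nanog shRNA course. In the Sox2 shRNA course it had 405, 716, 2749, 7523, 10710, 9275, 5926 and 7990, and in the empty vector course 37.3 to 652. Krt19 was thus lower under the Nanog shRNA on days 0 to 5 and higher on days 6 and 7. Krt18, the partner keratin of Krt8, had 504, 960, 3518, 10805, 17620, 33693, 33693 and 38930 under the Nanog shRNA. Under the Sox2 shRNA it had 1367, 6295, 16716, 27526, 27479, 34984, 26180 and 31602. On day 5 the Nanog shRNA course first exceeded the level that the Sox2 shRNA course had on day 3. The early difference was -2.55 ± 0.55 (SE) for Krt19 (limma, adjusted p = 0.0022) and -1.86 for Krt18 (adjusted p = 1.82e-05). The early call of Krt18 held without the day 0 sample of the Nanog or of the Sox2 shRNA course (adjusted p = 0.00435 and 0.0427), and that of Krt19 did not (0.0976 and 0.854). The late difference was 0.18 for Krt19 and 0.02 for Krt18, and neither passed.

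Ascl2, Cdkn1c and Phlda2, which are expressed in the placenta, also differed by day between the courses. Ascl2, a transcription factor that the spongiotrophoblast needs, had signals of 66.4, 101, 560, 1427, 1282, 1719, 3328 and 2878 under the Nanog shRNA. It had 330, 1061, 1225, 1514, 1450, 1452, 1071 and 1022 under the Sox2 shRNA. Ascl2 was highest on day 6 of the Nanog shRNA course and stayed between 1022 and 1514 from day 1 on in the Sox2 shRNA course. Its change was 2.78 (limma, adjusted p = 0.00143). Cdkn1c, a cell cycle inhibitor that is imprinted and abundant in placenta, had 228, 549, 644, 2143, 4717, 8162, 21700 and 20290 under the Nanog shRNA. The Sox2 shRNA course had 947, 2316, 4574, 8648, 11305, 13930, 12456 and 10872, and the empty vector course stayed at 182 to 745. The early difference of Cdkn1c was -1.96 and its change was 1.89 (adjusted p = 0.00143). Phlda2, which restrains placental growth, had a change of 2.46 (adjusted p = 2.95e-05). Without the day 0 sample of the Sox2 shRNA course, the changes of Ascl2, Cdkn1c and Phlda2 did not pass (adjusted p = 0.0601, 0.212 and 0.139), and that of Cdkn1c did not pass without day 0 of the Nanog shRNA course either (0.508). The late difference of Phlda2 was 0.63 and passed (adjusted p = 0.033), but not without the day 6 sample of the Nanog shRNA course (0.244) or the day 4, 6 or 7 sample of the Sox2 shRNA course (0.0769, 0.0812 and 0.142).

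Over the whole list of trophoblast and simple epithelial genes, 26 of 30 were tested. On days 0 and 1, 0 were higher and 10 lower, a share of 38.5% against 5.11% of all genes, with a median difference of -0.69 against 0.01. Over days 4 to 7, 6 were higher and 1 lower, 26.9% against 11.1%, with a median of 0.34 against 0.05. This late value averages both signs: the day-matched median was -0.57 on day 4, -0.16 on day 5, 0.7 on day 6 and 0.92 on day 7. The day 6 samples of both courses were among those farthest from their curves. Without day 7 of the Sox2 shRNA course 3 were higher late, as without the 3 far samples, beside 462 and 306 of all 14749 genes. The difference moved upward at 9 and downward at 0, 34.6% against 0.637%. Against the empty vector, whose samples both comparisons share, 20 were higher and 1 lower late under the Nanog shRNA, where 27.4% of all genes passed, and the same numbers held under the Sox2 shRNA, where 26.0% passed. Of 23 trophoblast transcription factors, 21 were tested, and 4 were lower early (Ascl2, Cited1, Esx1 and Gata2), 4 changed upward (Ascl2, Esx1, Gata2 and Elf3) and 1, Tfap2c, was higher late. These are shares of 19% early against 5.11% of all genes, 19% changing against 0.637%, and 4.8% late against 11.1%. Without day 0 of the Nanog shRNA course 1 was lower early and 1 changed, and without that of the Sox2 shRNA course 0 did either. The early difference of Tfap2c was 0.34 and did not pass (limma, adjusted p = 0.461). Cdx2, a regulator that trophoblast stem cells need, had signals of 505, 363, 899 and 668 on days 4 to 7 of the Nanog shRNA course against 445, 366, 426 and 288 in the Sox2 shRNA course, and its late difference of 0.56 did not pass (adjusted p = 0.378). The claudins, proteins of tight junctions, moved in the same way: Cldn3, Cldn4, Cldn6 and Cldn7 all passed for a change over time. The Cldn3 probe set used went from -1.423 early to 0.867 late, and others from -0.906 to 0.722 and from -1.164 to 0.329. A further Cldn3 probe set was not lower early (0.226, then 0.811). Cldn7 ended 1.14 ± 0.19 higher (SE, adjusted p = 2.31e-05), with signals of 2415, 2965, 4404 and 3759 on days 4 to 7 under the Nanog shRNA and 2021, 1574, 1020 and 1628 under the Sox2 shRNA. As over all genes, the early and the changing calls of the list rest largely on the first samples. Without the day 0 sample of the Sox2 shRNA course, 2 of the 26 were lower early and 0 changed, beside 29 and 8 of all 14749 genes. Without that of the Nanog shRNA course 4 were lower and 5 changed, beside 104 and 24 of all genes.

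**Figure D3:**
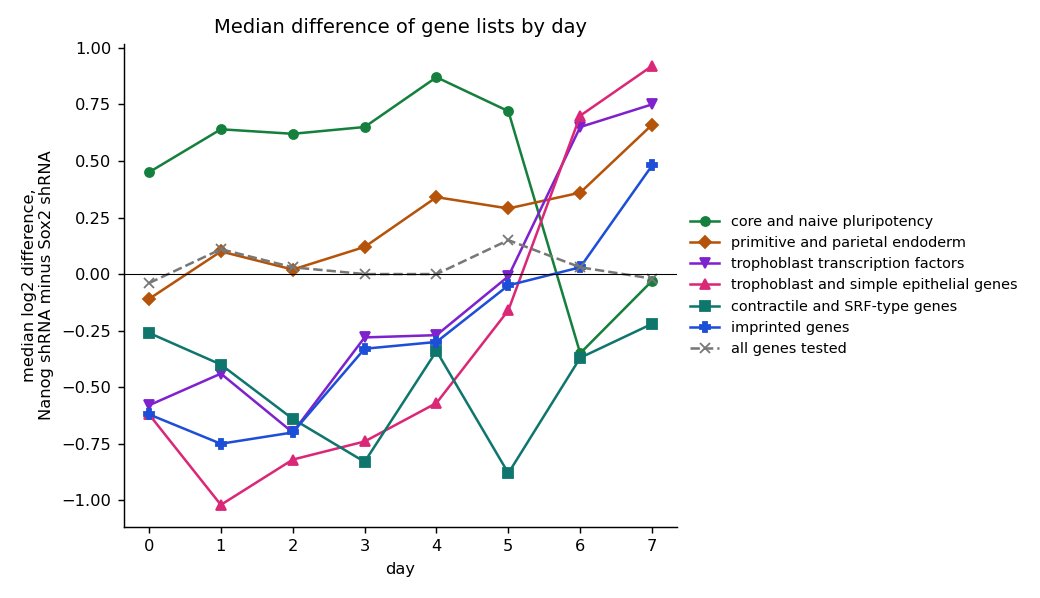
Median log2 difference, Nanog shRNA minus Sox2 shRNA, of 6 gene lists and of all genes on each day. The trophoblast and simple epithelial median is at -1.02 on day 1 and 0.92 on day 7, the contractile median is below 0 on all 8 days, and the pluripotency median is above 0 on days 0 to 5.

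Genes of primitive and parietal endoderm, the lineages that line the yolk sac, were more often higher than lower under the Nanog shRNA. Gata6, the zinc finger factor that starts primitive endoderm, had signals of 336, 458, 301, 541, 631, 823, 850 and 1290 on days 0 to 7 of the Nanog shRNA course. It had 242, 189, 253, 265, 269, 346, 393 and 355 in the Sox2 shRNA course. Gata6 was higher under the Nanog shRNA on every day, and its 4 late values lay above all values of the Sox2 shRNA course. The late difference was 1.20 ± 0.16 (SE, limma, adjusted p = 3.54e-07). Against the empty vector, Gata6 differed by 1.30 under the Nanog shRNA (adjusted p = 1.39e-08) and by 0.10 under the Sox2 shRNA (adjusted p = 0.736).

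Lama1, a laminin chain of the basement membrane that parietal endoderm secretes, had late signals of 1128, 677, 1118 and 2734 under the Nanog shRNA against 92.5, 257, 492 and 448 under the Sox2 shRNA. The groups did not overlap, and the late difference was 1.79 ± 0.28 (SE, adjusted p = 9.57e-06). Lama1 differed from the empty vector by 0.42 under the Nanog shRNA (adjusted p = 0.303) and by -1.37 under the Sox2 shRNA (adjusted p = 0.000162). Amn, part of the receptor with which visceral endoderm takes up proteins, had late signals of 750, 836, 656 and 1522 against 178, 302, 359 and 519, a difference of 1.29 ± 0.21 (adjusted p = 1.63e-05). Cubn, the other chain of that receptor, differed by 1.20, and Srgn, a proteoglycan of parietal endoderm, by 1.58. Cubn did not pass without day 7 of the Sox2 shRNA course (adjusted p = 0.144), nor did Srgn without day 7 of the Nanog shRNA course (0.0654). Gata4 had late signals of 483, 457, 481 and 650 under the Nanog shRNA and 274, 204, 327 and 303 under the Sox2 shRNA. Its difference of 0.76 did not pass without either day 7 sample (adjusted p = 0.0861 and 0.116).

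Of the 40 endoderm genes listed, 36 were tested, of which 10 were higher and 4 lower late, a share of 38.9% against 11.1% of all genes, and 22 did not pass. Their median late difference was 0.39 against 0.05 over all genes. The 4 lower genes were Grb10 (-1.0), Fst (-0.98), Serpinh1 (-0.68) and Nid2 (-0.44). Fst encodes follistatin, a secreted inhibitor of activin, Serpinh1 a chaperone of collagen and Nid2 a basement membrane linker. Without the 3 far samples 8 were higher and 0 lower, beside 306 and 270 of all genes. With either day 7 sample left out 7 were higher, beside 522 (Nanog shRNA course) and 462 (Sox2 shRNA course) of all genes. Summed over 30 endoderm genes on the A arrays, late signals ran from 51478 to 80133 under the Nanog shRNA, from 52012 to 58998 under the Sox2 shRNA and from 28759 to 40065 with the empty vector. The summed levels of the 2 knockdown courses overlapped, and both lay above the empty vector. Gene by gene, the median difference of the 36 from the empty vector was 0.60 under the Nanog shRNA, with 18 higher and 3 lower, and 0.03 under the Sox2 shRNA, with 10 higher and 3 lower. The shares that passed were 58.3% and 36.1%, against 27.4% and 26.0% of all genes. Under the Sox2 shRNA 18 of the 36 lay above the empty vector and 18 below.

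**Figure D4:**
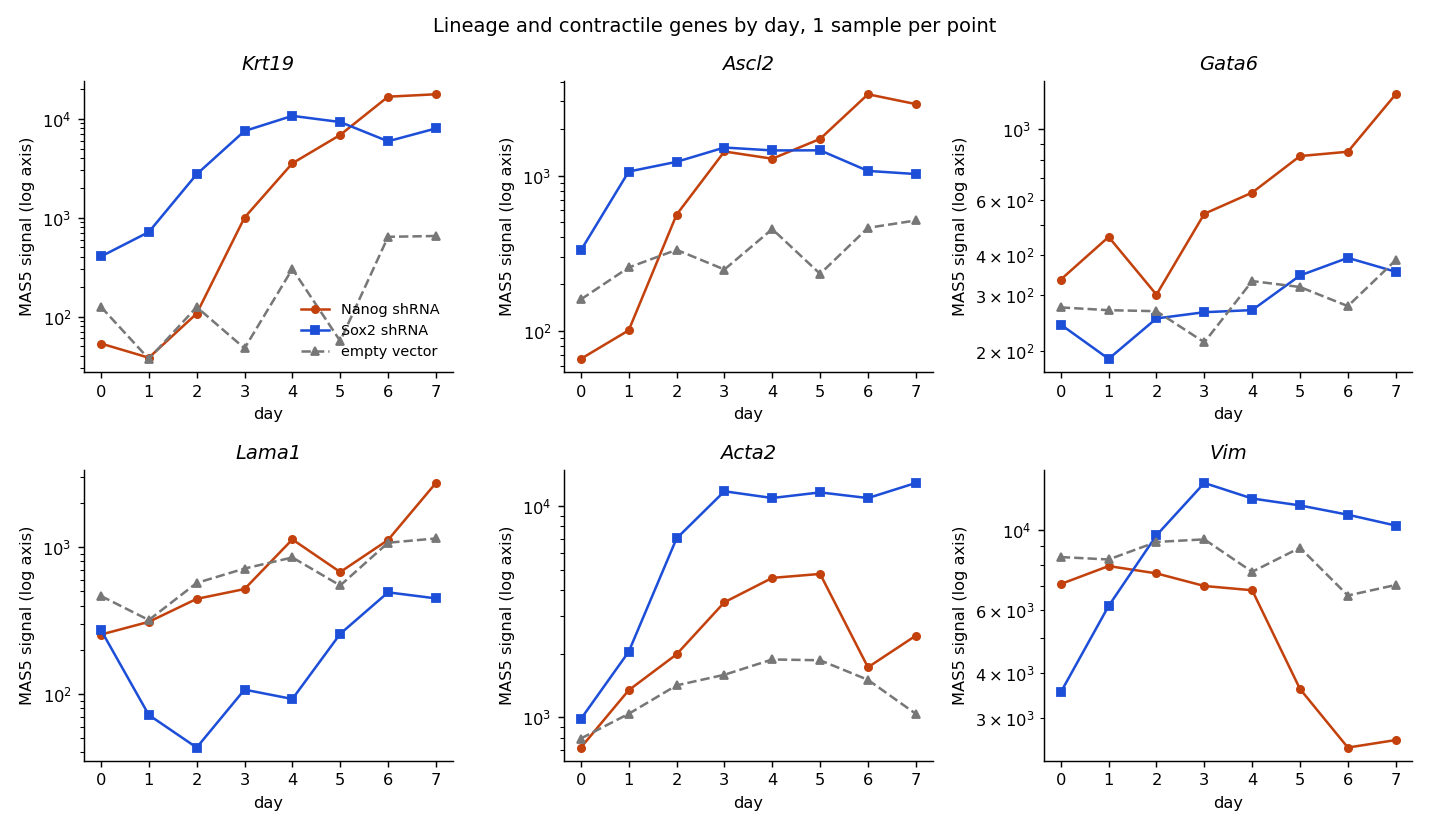
MAS5 signal (log axis) by day of Krt19 and Ascl2 (trophoblast and epithelium), Gata6 and Lama1 (endoderm), and Acta2 and Vim (contractile and mesenchymal) for the Nanog shRNA, Sox2 shRNA and empty vector courses, 1 sample per point. The Krt19 curves of the knockdown courses cross between days 5 and 6, and Acta2 is at 2435 under the Nanog shRNA and 12833 under the Sox2 shRNA on day 7.

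Genes of the contractile apparatus stood lower under the Nanog shRNA than under the Sox2 shRNA. Acta2 had signals of 720, 1345, 1987, 3503, 4566, 4767, 1726 and 2435 on days 0 to 7 of the Nanog shRNA course. It had 983, 2045, 7016, 11722, 10894, 11580, 10887 and 12833 in the Sox2 shRNA course, and 795 to 1879 in the empty vector course. From day 2 on, the Sox2 shRNA samples stood above every sample of the other 2 courses, and the late difference was -1.92 ± 0.25 (SE, limma, adjusted p = 2.26e-07), 3.77-fold lower under the Nanog shRNA. Acta1, skeletal muscle actin, had late signals of 2749, 1344, 1058 and 1662 under the Nanog shRNA against 10080, 10482, 7624 and 8468 under the Sox2 shRNA, a difference of -2.51 ± 0.33 (adjusted p = 3.69e-07). Tagln, an actin-binding protein of smooth muscle, had 4137, 3253, 1262 and 2547 against 12665, 14408, 10564 and 12319, a difference of -2.30 ± 0.35 (adjusted p = 6.43e-06). For all 3 genes the late groups did not overlap. Acta1 and Tagln were picked as large late differences with that sign on each late day, so for them this adds no support. Both knockdown courses stood above the empty vector for Acta1, by 2.09 under the Nanog shRNA and 4.59 under the Sox2 shRNA, and for Tagln, by 1.70 and 4.0, with the same empty vector samples in each comparison.

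Cnn1, a calponin that binds actin, differed late by -1.67 ± 0.28 (SE, limma, adjusted p = 3.63e-05), and Myl9, a regulatory light chain of myosin, by -1.23 ± 0.21 (adjusted p = 3.47e-05). Of 32 contractile and SRF-type genes, many of them known targets of serum response factor (SRF), 30 were tested, of which 13 were lower and 1 higher late, and 16 did not pass. That is 46.7% against 11.1% of all genes, with a median difference of -0.44 against 0.05. The 1 higher gene was Egr1, an immediate early transcription factor, with late signals of 439, 841, 540 and 987 under the Nanog shRNA against 166, 219, 232 and 348 under the Sox2 shRNA. Its difference of 1.26 did not pass without day 7 of the Nanog shRNA course (adjusted p = 0.0958). Without the 3 far samples, 5 of the 30 were lower, beside 270 of all 14749 genes. With any single sample left out, 10 to 14 were lower, beside 441 to 855 of all genes. Summed over 29 members on the A arrays, late signals ran from 70193 to 83015 under the Nanog shRNA, from 109202 to 129421 under the Sox2 shRNA and from 40162 to 41800 with the empty vector, with no overlap.

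The promoters of the lower contractile genes are shown because SRF binds a known element, the CArG box, a 10-letter run of CC, then 6 letters that are each A or T, then GG. The box was searched on both strands of the 250 bases before the start site of each gene in RefSeq, build GRCm38.p6. It was found in 8 of the 24 contractile genes with such a window, against 482 of all 32851 windows (1.47%). Many genes of the list are known SRF targets, so an excess over all windows was likely from the choice and adds no support. Of the 13 genes that were lower late, 10 had a window and 4 of these held a box. Of the genes that were not lower, 14 had a window and 4 held a box. The 4 lower genes with a box were Actc1, Myl9, Acta1 and Vcl, and the box stands in capitals in each.
Actc1 promoter, chr2:114052876-114053125, minus strand: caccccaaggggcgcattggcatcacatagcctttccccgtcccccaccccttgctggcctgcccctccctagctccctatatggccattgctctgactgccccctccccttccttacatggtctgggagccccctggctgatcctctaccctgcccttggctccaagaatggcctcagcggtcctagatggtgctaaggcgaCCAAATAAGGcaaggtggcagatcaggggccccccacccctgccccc
Myl9 promoter, chr2:156775214-156775463, plus strand: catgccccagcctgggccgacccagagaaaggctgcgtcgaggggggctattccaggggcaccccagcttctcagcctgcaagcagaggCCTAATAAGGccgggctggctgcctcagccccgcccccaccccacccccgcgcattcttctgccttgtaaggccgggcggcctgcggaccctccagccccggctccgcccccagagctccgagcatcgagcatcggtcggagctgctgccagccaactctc
Acta1 promoter, chr8:123894776-123895025, minus strand: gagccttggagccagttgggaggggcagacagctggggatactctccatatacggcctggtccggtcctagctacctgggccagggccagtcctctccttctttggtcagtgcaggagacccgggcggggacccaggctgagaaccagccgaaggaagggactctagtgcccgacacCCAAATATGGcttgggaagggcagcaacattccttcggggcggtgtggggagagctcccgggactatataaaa
Vcl promoter, chr14:20929148-20929397, plus strand: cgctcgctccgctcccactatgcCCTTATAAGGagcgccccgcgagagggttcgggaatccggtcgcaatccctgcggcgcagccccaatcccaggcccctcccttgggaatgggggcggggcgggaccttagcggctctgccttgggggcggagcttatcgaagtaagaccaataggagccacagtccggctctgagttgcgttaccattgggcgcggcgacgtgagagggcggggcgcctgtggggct
The box began 47 bases before the start site in Actc1, 73 in Acta1, 161 in Myl9 and 227 in Vcl. A match is a run of letters and not a measured binding site. Actc1, cardiac actin, was lower late by 1.31 on the log2 scale and did not pass without day 5 of the Nanog shRNA course (adjusted p = 0.0779) or day 7 of the Sox2 shRNA course (0.0567). Vcl, vinculin, which ties actin to adhesions, was lower by 0.65 and did not pass without day 5 or 7 of the Nanog shRNA course (0.0674 and 0.189) or day 6 of the Sox2 shRNA course (0.0691).

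Several genes of mesenchymal cells and interstitial matrix were also lower late under the Nanog shRNA. Vimentin (Vim), the intermediate filament of mesenchymal cells, had signals of 7067, 7928, 7564, 6979, 6791, 3612, 2484 and 2606 on days 0 to 7 of the Nanog shRNA course. In the Sox2 shRNA course it had 3538, 6142, 9649, 13485, 12209, 11680, 11008 and 10271. Vim was higher under the Nanog shRNA on days 0 and 1 and lower on days 2 to 7, with a late difference of -1.69 ± 0.16 (SE, limma, adjusted p = 1.29e-10) and a change of -2.35 (adjusted p = 1.01e-06). Against the empty vector it was lower late under the Nanog shRNA, at -1.11 (adjusted p = 4.98e-07), and higher under the Sox2 shRNA, at 0.58 (adjusted p = 0.00446). Pdgfrb, a growth factor receptor of mesenchyme, had late signals of 141, 119, 169 and 168 under the Nanog shRNA against 1276, 573, 424 and 370 under the Sox2 shRNA, a difference of -1.53 ± 0.27 (adjusted p = 5.04e-05). Loxl1, which cross-links elastic fibres, differed by -1.22 ± 0.17 (adjusted p = 1.35e-06).

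Of 25 interstitial matrix and fibroblast genes, 20 were tested, of which 7 were lower and 0 higher late, 35% against 11.1% of all genes. The other 4 lower genes were Col5a2, Timp1, Fn1 and Mmp2, by 0.78 to 1.10 on the log2 scale. The median of the 20 was -0.36 against 0.05 over all genes. The fibrillar collagen gene Col1a1 had late signals of 220, 207, 263 and 134 under the Nanog shRNA against 408, 239, 196 and 314 under the Sox2 shRNA, and did not pass (-0.33, adjusted p = 0.446). The summed late signal of 18 members on the A arrays ran from 11234 to 17853 under the Nanog shRNA, from 25375 to 29675 under the Sox2 shRNA and from 22794 to 25402 with the empty vector. Gene by gene, the median difference of the 20 from the empty vector was 0.04 under the Nanog shRNA, with 2 higher and 6 lower, and 0.31 under the Sox2 shRNA, with 7 higher and 2 lower. The shares that passed were 40.0% and 45.0%, against 27.4% and 26.0% of all genes. This list stands for fibroblasts that a culture could hold. Its sum and the contractile sum were both lower under the Nanog shRNA than under the Sox2 shRNA, whereas against the empty vector the Nanog shRNA course had a lower interstitial and a higher contractile sum. The part of the list in the contractile difference was not tested. Without the 3 far samples, 4 of the 20 were lower, beside 270 of all 14749 genes.

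**Figure D5:**
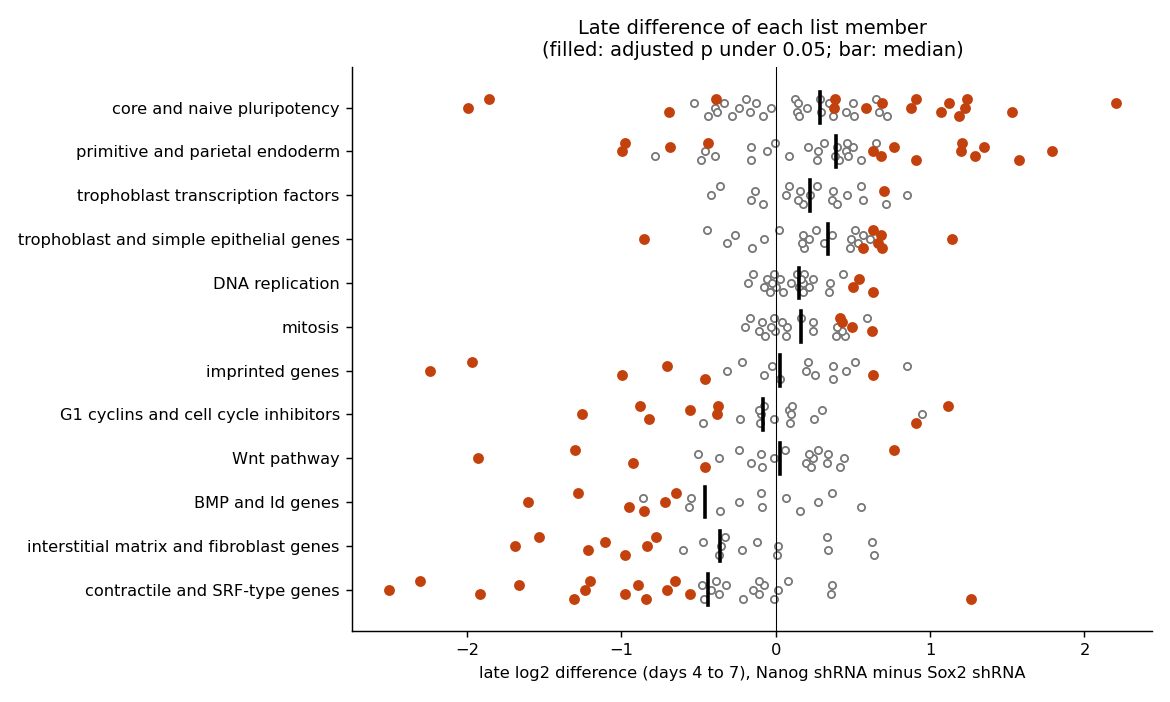
Late log2 difference, Nanog shRNA minus Sox2 shRNA, of each tested member of 12 gene lists. Filled points passed the test and bars mark the median of a list, which is -0.44 for the contractile genes and 0.39 for the endoderm genes.

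Signalling genes with lower late levels under the Nanog shRNA came from several pathways. Of the BMP and Id genes, 18 of 20 were tested and 6 were lower and 0 higher, 33.3% against 11.1% of all genes, with a median of -0.46 against 0.05. Id3, an inhibitor of basic helix-loop-helix factors that BMP signals induce, had late signals of 685, 1180, 925 and 907 under the Nanog shRNA against 2745, 3953, 2573 and 2568 under the Sox2 shRNA. The groups did not overlap, and the difference was -1.60 ± 0.26 (SE, limma, adjusted p = 1.35e-05). Id1, of the same family, differed by -0.95 (adjusted p = 4.84e-06). Without the 3 far samples, 3 of the 18 were lower, beside 270 of all 14749 genes. Of 22 Wnt pathway genes tested, 4 were lower and 1 higher, 22.7% against 11.1%, and the median was 0.02. Without day 5 of the Nanog shRNA course or day 6 of the Sox2 shRNA course, 2 of them were lower. Fzd2, a Wnt receptor, had late signals of 1290, 845, 555 and 488 against 4539, 3285, 2162 and 2511, a difference of -1.93 ± 0.14 (adjusted p = 1.98e-13). The secreted Wnt inhibitor Dkk1 differed by -1.30 (adjusted p = 8e-05). Of 19 Nodal and activin genes tested, 4 were lower and 0 higher, 21.1% against 11.1%, among them Fst and Nodal itself (-0.67). Nodal did not pass without day 6 of the Nanog shRNA course (adjusted p = 0.0521) or with day as a block (0.0578). Only 1 of the 19 was lower without day 7 of the Nanog shRNA course, and 2 were without its day 5 or 6 or day 7 of the Sox2 shRNA course. Of 18 retinoid genes tested, 3 were lower and 1 higher, 22.2% against 11.1%. Crabp2, which carries retinoic acid to the nucleus, had late signals of 44.6, 67.0, 59.5 and 140 under the Nanog shRNA against 545, 563, 568 and 511 under the Sox2 shRNA, a difference of -2.04 ± 0.31 (adjusted p = 5.63e-06). Dhrs3, a retinal reductase, differed by -1.34 (adjusted p = 0.000347). Crabp2 and Dhrs3 thus moved together, while the list's median was 0.02.

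Genes of the undifferentiated state fell in both courses and stood higher at first under the Nanog shRNA. Of 47 pluripotency genes, 44 were tested. On days 0 and 1, 16 were higher and 2 lower under the Nanog shRNA, a share of 40.9% against 5.11% of all genes, and the median was 0.50. Over days 4 to 7, 13 were higher and 4 lower, 38.6% against 11.1%, with a median of 0.29. Nanog and Sox2 count among these and are the targets themselves. The day-matched median was 0.87 on day 4, -0.35 on day 6 and -0.03 on day 7. Late counts of higher genes were 7 without day 7 of the Nanog shRNA course and 8 without that of the Sox2 shRNA course. Early counts were 8 without day 0 of the Nanog shRNA course and 9 without that of the Sox2 shRNA course. Over all genes, 40 and 65 were higher early in these fits. Against the empty vector, 26 of the 44 were lower and 1 higher late under the Nanog shRNA, and 34 were lower and 0 higher under the Sox2 shRNA. The shares that passed were 61.4% and 77.3%, against 27.4% and 26.0% of all genes.

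Slc7a3, a transporter of arginine and lysine that embryonic stem cells express, had signals of 4562, 4335, 3589, 2853, 2108, 1319, 1350 and 1750 on days 0 to 7 under the Nanog shRNA. It had 681, 520, 407, 443, 323, 339, 641 and 856 under the Sox2 shRNA. The groups did not overlap, with an early difference of 2.76 and a late one of 1.53 ± 0.14 (SE, limma, adjusted p = 9.13e-11). Dppa3, a maternal factor that protects DNA methylation in the early embryo, had 1586, 2819, 3092, 3416, 3326, 4882, 1729 and 1667 against 610, 730, 729, 750, 585, 473, 400 and 657. Its late difference was 2.21 ± 0.16 (adjusted p = 1.19e-13), with 1.20 above the empty vector under the Nanog shRNA and 1.01 below it under the Sox2 shRNA on the log2 scale. The RNA-binding protein gene Lin28a differed by 1.23 ± 0.11 (adjusted p = 6.9e-11) and the transcription factor gene Klf2 by 1.07 ± 0.19 (adjusted p = 9.02e-05). Khdc3, an oocyte and early embryo gene, moved the other way, with late signals of 1194, 1169, 1021 and 1193 under the Nanog shRNA against 4322, 2858, 3707 and 7018 under the Sox2 shRNA. Its difference was -1.85 ± 0.15 (adjusted p = 3.22e-12), and against the empty vector it differed by -1.94 under the Nanog shRNA and by -0.08 under the Sox2 shRNA (adjusted p = 0.773).

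Of the study's other regulators, Pou5f1, the gene of Oct4, had late signals of 10285, 10638, 4779 and 7250 under the Nanog shRNA against 8115, 8060, 8818 and 12126 under the Sox2 shRNA. The ranges overlapped and the difference of -0.24 did not pass (adjusted p = 0.352). Tcl1, a cofactor of Akt, differed by 2.37 early and 0.91 late. The late call (adjusted p = 0.000686) was lost without day 7 of the Nanog shRNA course (0.0962). Esrrb, a nuclear receptor, differed by -0.39 late (adjusted p = 0.0146), a call lost when any of 4 single samples was left out (0.0811 to 0.15). Its other probe sets differed by -0.297 and 0.008 and did not pass (limma over all probe sets, adjusted p = 0.344 and 0.987). Tbx3, a T-box repressor, did not pass (-0.53, adjusted p = 0.168). Another of its probe sets passed in the fit of all probe sets (-0.469, adjusted p = 0.0232), and a further, dim one did not (-0.291, 0.65). Dppa4 differed by 0.38 (adjusted p = 0.00206) and did not pass without either day 7 sample (0.403 and 0.0847).

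Of 14 germ line genes tested, 1 was higher (Dppa3) and 2 lower late, 21.4% against 11.1% of all genes. The lower ones were Ddx4, an RNA helicase of germ cells (-1.07), and Taf7l, which was bright enough to be tested only in the Sox2 shRNA course and whose call therefore carries no weight. Without day 7 of the Nanog shRNA course 4 were lower. Of 15 genes of the DNA methylation machinery, 3 were higher and 0 lower, 20% against 11.1%. Dnmt3b, a de novo DNA methyltransferase, had late signals of 7429, 9291, 7066 and 7356 under the Nanog shRNA against 3372, 3567, 3961 and 4194 under the Sox2 shRNA. The groups did not overlap, and the difference was 1.03 ± 0.11 (SE, limma, adjusted p = 3.1e-09). Dnmt3b lay 1.01 above the empty vector under the Nanog shRNA (adjusted p = 8.58e-10) and differed from it by -0.02 under the Sox2 shRNA (adjusted p = 0.924). Of 18 primed epiblast genes, 3 were higher, among them Grhl2, a regulator of epithelial genes (1.30, adjusted p = 4.74e-06), and 3 lower, led by Sox4 (-1.17), 33.3% against 11.1%. Esrp1, a splicing regulator of epithelial cells, had late signals of 621, 363, 403 and 535 against 128, 81.9, 58.7 and 59.6, a difference of 1.92 ± 0.20 (adjusted p = 2.83e-09).

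Several imprinted genes, which are expressed from 1 parental allele, were lower early. Of 23 listed, 19 were tested, and 8 were lower and 0 higher on days 0 and 1, 42.1% against 5.11% of all genes. The list shares Ascl2, which was lower early, and Phlda2 with the trophoblast lists above. Its early calls are thus not separate from theirs. Without the day 0 sample of the Sox2 shRNA course 1 was lower, and without that of the Nanog shRNA course 4 were. Over all genes, 29 and 104 were lower early in these fits. Over days 4 to 7, 5 were lower and 1 higher, 31.6% against 11.1%. In the fit without the 3 far samples 2 were lower, beside 270 of all 14749 genes. Dlk1, a Notch-related membrane protein of fetal tissues, had late signals of 331, 409, 336 and 365 under the Nanog shRNA against 1870, 1678, 1436 and 1575 under the Sox2 shRNA, a difference of -1.97 ± 0.19 (SE, limma, adjusted p = 2.68e-10). The early difference of Dlk1 was 0.151, so Dlk1 was not among the genes lower early. Nnat, neuronatin, had 279, 492, 275 and 308 against 2332, 1856, 1434 and 1769, a difference of -2.24 ± 0.17 (adjusted p = 2.66e-13). For both genes the late groups were apart from each other. Nnat was picked for its late difference and Dlk1 for its change, so this adds no support. Igf2, a fetal growth factor, reached 21649 and 20664 on days 6 and 7 under the Nanog shRNA against 18734 and 21291 under the Sox2 shRNA, and its late difference did not pass (-0.31, adjusted p = 0.533).

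Of 25 DNA replication genes 3 were higher and 0 lower late, 12% and so close to the 11.1% of all genes. In the fit without the 3 far samples 1 was higher, beside 306 of all 14749 genes. Of 23 mitosis genes 4 were higher and 0 lower, 17.4%, and 2 were higher without day 7 of either course or day 5 of the Sox2 shRNA course. These differences were at most 0.63 on the log2 scale. Among 22 genes of G1 cyclins and cell cycle inhibitors, 2 were higher and 6 lower, 36.4% against 11.1%, and 2 were lower without day 7 of the Sox2 shRNA course. The inhibitor Cdkn2b, which blocks Cdk4 and Cdk6, had late signals of 500, 296, 364 and 255 under the Nanog shRNA against 1042, 931, 854 and 769 under the Sox2 shRNA. The difference was -1.26 ± 0.24 (SE, limma, adjusted p = 0.000166), and its neighbour Cdkn2a differed by -0.82 (adjusted p = 2.44e-05). Cyclin E2 (Ccne2) was higher by 1.12 and did not pass without day 7 of the Sox2 shRNA course (adjusted p = 0.0529). Of 20 neuroectoderm genes tested, 3 were higher and 4 lower, 35% against 11.1%, led by Nnat, Gap43 (-1.72) and Sox1 (-1.47). Without day 7 of the Nanog shRNA course or day 5 of the Sox2 shRNA course 2 were lower, and Sox1 did not pass (adjusted p = 0.102 and 0.0644). Of 24 adhesion genes 1 was higher and 3 lower late, 16.7% against 11.1%, with the laminin-binding integrin chains Itga6 (-1.15) and Itga3 (-0.85) among the lower. Of 20 FGF and ERK genes 3 were higher and 2 lower (25%), and of 21 Atf4 and amino acid stress genes 4 were higher and 2 lower (28.6%). Of 17 p53 targets 1 was higher and 2 lower (17.6%), and of 14 annexin and S100 genes 3 were higher and 0 lower (21.4%), all beside 11.1% of all genes. Without the 3 far samples, 1, 2, 0 and 0 genes of these 4 lists were higher, beside 306 of all 14749 genes.

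Several lists were at or below the share of all genes. Of the LIF and Stat3 pathway, 2 of 18 genes were lower late (11.1%, as over all genes) and 0 higher. Only 1 gene each passed late among 23 hypoxia and glycolysis genes (Adm), 18 Hox, Meis and Pbx genes (Pbx3) and 18 mesoderm and primitive streak genes (Bmp4). Among 17 ribosomal protein genes and 18 interferon genes, which double-stranded RNA can induce, 0 passed late. The medians of these 2 lists were 0.11 and 0.17.

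Some of the largest late differences were in genes of no list. Pcolce, a secreted enhancer of collagen processing, had signals of 844, 374, 244 and 607 on days 4 to 7 of the Nanog shRNA course against 3296, 3908, 3656 and 4652 in the Sox2 shRNA course. It was 7.59-fold lower, at -2.92 ± 0.18 (SE, limma, adjusted p = 3.79e-16), and against the empty vector it differed by -3.08 under the Nanog shRNA and by -0.16 under the Sox2 shRNA (adjusted p = 0.578). Igfbp4, which binds insulin-like growth factors, had 2209, 1383, 875 and 1422 against 10664, 8307, 6040 and 9217, a difference of -2.59 ± 0.22 (adjusted p = 1.32e-11). In Igfbp4 the Nanog shRNA course differed from the empty vector by -0.08 (adjusted p = 0.848) and the Sox2 shRNA course by 2.51. Tesc, a calcium-binding protein, had 32.3, 53, 29.9 and 22.1 against 387, 676, 638 and 831, a difference of -2.76 ± 0.29 (adjusted p = 3.19e-09). Fstl1, a secreted glycoprotein, differed by -2.42 ± 0.24 (adjusted p = 3.38e-10). The remaining large lower genes of no list were Gsdmd, Fxyd6, Nxt2, Ampd3 and Prrx2, with differences from -2.39 to -2.25.

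On the higher side, Spink1, a secreted protease inhibitor, had signals of 2204, 2753, 976 and 2521 on days 4 to 7 of the Nanog shRNA course against 93.9, 197, 282 and 551 in the Sox2 shRNA course. Its late difference was 2.68 ± 0.28 (SE, limma, adjusted p = 2.88e-09), and its early one was 4.02. Tdrd12, a factor of the piRNA pathway in germ cells, had 1413, 1686, 865 and 867 against 170, 214, 308 and 352, a difference of 2.08 ± 0.12 (adjusted p = 1.6e-16). Tdrd12 differed from the empty vector by -0.18 under the Nanog shRNA (adjusted p = 0.292) and by -2.27 under the Sox2 shRNA. Pramel7, a gene of the early embryo, had 237, 646, 477 and 345 against 18.1, 19.4, 63.4 and 44.6, with the empty vector at 23.2 or less on every day. Pramel7 was above the signal needed for testing on 3 arrays, all of the Nanog shRNA course, so a difference was bound to appear and its test is not used here. With no filter on low values, a different probe set was taken for Pramel7, and its late difference was 0.54 (limma, adjusted p = 0.373). Trh, the precursor of thyrotropin-releasing hormone, differed by 1.89 ± 0.26 (adjusted p = 5.57e-07). The transcription factor gene Myb differed by 2.02, and Nadk2, Liph, Ube2q2, Galnt6 and Dpys by 1.85 to 2.32. Other probe sets differed by 0.316, 0.741 and 1.059 for Nadk2, 0.709 for Liph and -0.117 for Galnt6. Of these only the 1.059 of Nadk2 passed (limma over all probe sets, adjusted p = 0.0403). Galnt6 did not pass without the 3 far samples (limma, adjusted p = 0.134). In all these higher genes except Galnt6, the lowest late value under the Nanog shRNA stood above the highest under the Sox2 shRNA, for Trh only just (1980 against 1972). The genes were picked for a large late difference with that sign on each of days 4 to 7. Such a separation was therefore likely from the choice alone and adds no support.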

How the data were processed

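Total RNA of sorted cells was labelled as biotin cRNA and hybridised to MOE430A and MOE430B arrays, per the labels' protocols. The deposited intensity values are linear MAS5 signals, 1 array per column, per the labels; for MAS5 no version is given in the sources used here. On every array, 100 shared control probe sets have a 2% trimmed mean of 2500, so the arrays were scaled to them. Of 45265 probe sets, 128 are controls, 35041 name 1 gene, 936 several and 9160 none. From the signals, log2(signal + pseudocount) was computed, with the 20th percentile of each table as pseudocount. A gene was kept, by 1 probe set, if its signal was above the table median (283.3 on A, 89.2 on B) on at least 3 of the 70 arrays of a design. Curves (natural cubic splines with 3 degrees of freedom per course, all 9 courses) were fitted to each gene (limma 3.58.1, R 4.3.3), using eBayes with an intensity trend and Benjamini-Hochberg adjustment over both designs. The script was tested on simulated data. The labels give no replicate numbers. Each course has 1 sample a day, so days served as the block in an alternative fit. The number of arrays limits the precision.

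The samples, gene lists and tests were chosen with earlier results of these data known. The genes named are the study's regulators and the markers, the 12 largest late differences in each direction with that sign on each of days 4 to 7, the 6 largest changes over time in each direction, and up to 6 passing and 2 other members of each of 29 gene lists. Genes named for the size of their late difference were likely to have late groups apart, so for them a lack of overlap adds no support. Further genes were chosen after their values were seen: Krt18, Cdkn1c, Igf2, Cdx2, Cited1, Esx1, Gata2, Elf3, Cldn4, Gata4, Serpinh1, Nid2, Myl9, Vcl, Mmp2, Col1a1 and Klf2. Alternatives changed the pseudocount, filter, normalization, probe set rule, spline, variance model, samples in the fit and late window, or left out samples.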

Additional observations from a re-analysis of the deposited data

Results flagged for a closer look

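In 11 of the 157 genes examined, the late levels of the courses lay on opposite sides of the empty vector, with both differences past the threshold. The late difference between the courses, tested by limma as in the report, also had to pass and be at least 2-fold. Only these 157 were searched, and they include the genes named for their large differences, so 11 is not a count over all genes. The late differences, Nanog shRNA minus Sox2 shRNA on the log2 scale, were 2.68 for Spink1, 2.21 for Dppa3 and 1.50 for Calml4, which were above the empty vector under the Nanog shRNA and below it under the Sox2 shRNA. Calml4, a calmodulin-like protein, had signals of 648, 603, 504 and 482 on days 4 to 7 under the Nanog shRNA against 179, 133, 166 and 168 under the Sox2 shRNA. The other way round were Tesc (-2.76), Fstl1 (-2.42), Gsdmd (-2.39), Prrx2 (-2.25), Nnat (-2.24), Gap43 (-1.72), Vim (-1.69) and Loxl1 (-1.22). Gsdmd did not pass without the 3 samples farthest from their curves.

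Of 314 sets of 4 late samples (1 gene in 1 course), 17 held a sample that stood apart by Dixon's 95% criterion, and chance alone gives about 1 in 20. Days of a course are ordered stages and not replicates, so a first or last day can stand apart through a trend. In the Nanog shRNA course, day 4 was apart for Krt8 (signal 13189), Rhox5 (9875) and Hand1 (613.0), and day 6 for Perp (665.0), Khdc3 (1021) and Cdkn2a (358.1). Day 7 of that course was apart for Dab2 (3436), Gata4 (649.8), Srgn (2500), Psat1 (4515) and Asns (8841). In the Sox2 shRNA course, day 4 was apart for Tbx3 (1329) and Cldn6 (2191), day 5 for Id3 (3953), day 6 for Mad2l1 (3291) and day 7 for Trh (1972) and Mycn (1728).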

How the results depend on the processing

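The number of genes with a late difference was 492 with day as a block in place of the curves, 1021 with only the compared courses in the fit, 576 without the 3 samples farthest from their curves (a setting chosen after seeing the data) and 903 to 1804 with single samples left out, against 1635. The early count was 411 with only the compared courses and 94 to 809 with single samples left out, against 754. The count of changes over time was 57 with 2 spline degrees of freedom, 9 with day as a block, 36 with only the compared courses, 49 with a window of days 4 to 6, 30 without the 3 far samples and 8 to 132 with single samples left out, against 94. Unadjusted p-values were under 0.05 at 3399, 2118 and 1228 genes for the late, early and changing differences. The count of the mean difference over all days, 2866, ranged from 2027 to 3018 with single samples left out. Against the empty vector, late counts were 2080 with day as a block, 1941 without the 3 far samples and 3247 to 4046 with single samples left out for the Nanog shRNA (4044), and 2300 with day as a block and 3260 to 3811 with single samples left out for the Sox2 shRNA (3829). The mean number of genes 2-fold apart on days 4 to 7 was 564.5 with the table median as pseudocount, against 1557.75. The cause of these movements was not tested. The mean Nanog, Sox2 and Acta2 differences over 8 days kept their sign and call under the other pseudocounts, quantile normalization and averaged probe sets, whereas the Dab2 mean, which had not passed, was 0.04 with averaged probe sets. Of 113 named or examined genes that passed late, 54 kept direction and call under every setting, 59 lost the call in at least 1 and 0 reversed. The Sox2 late difference lost its call with day as a block. Of 113 further probe sets of these genes, 24 differed from the one used by more than 1.5-fold, and in the opposite direction 0 passed. The labels give no replicate numbers to pair, so the courses were paired by day, in the sign-flip tests and in the fit with day as a block. Dim genes are limited by signal over background, since the pseudocount compresses their differences.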
